A study of Mus musculus with 23 samples.

Results

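The genes described here are 37 genes of the cell division cycle, taken by symbol from the 22488 genes of a count table of mouse RNA libraries. All 37 symbols were in the table, and each gene's level is given in CPM, its counts per 1000000 counts of the library. The libraries were made with EASY-RNASeq, a protocol for small inputs which makes cDNA from oligo-dT primers and lets Tn5 transposase fragment it and add the adapters. T cells with CD3 on their surface, from the spleen of C57 mice aged 6 to 18 weeks, gave 12 libraries, 3 each from 100, 500, 1000 and 10000 cells. Diluted RNA gave 11 libraries, 2 from 0.1 ng and 3 each from 0.5, 1 and 5 ng, and its labels name the same strain and age range. The labels name no genotype, allele or agent for either material, and they do not say whether the animals were pooled.

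The labels disagree on the diluted RNA. The description of the series calls it mouse spleen RNA, while the sample labels name RAW 264.7, a macrophage cell line. Marker genes of many blood cell types had counts in it. At 5 ng the 10 B cell markers took 0.750 ± 0.00383% of all counts (SD, n = 3), the 12 T cell markers 0.172 ± 0.00604%, the 15 erythroid markers 0.497 ± 0.00239%, the 12 neutrophil markers 0.520 ± 0.0132% and the 14 macrophage markers 0.351 ± 0.00280%. The B cell gene Ms4a1 averaged 1436 CPM and the globin gene Hbb-bs 1729 CPM at 5 ng. The material is therefore called diluted RNA below. The T cell libraries carried the markers of their label: the T cell genes Tcf7 and Lck averaged 1716 and 1093 CPM at 10000 cells.

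The cell cycle runs from growth through DNA synthesis to mitosis, and resting cells stay outside it. Cyclins switch on the kinase Cdk1 and its relatives, licensing factors load the Mcm helicase on DNA before synthesis, and mitotic kinases, motors and the anaphase-promoting complex then separate the chromosomes. Mki67 and Top2a are widely used as markers of dividing cells in lymphoid tissue, whereas Pcna and the Mcm genes also work in cells that prepare for DNA synthesis or repair DNA.

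The 37 genes were read in 6 groups by role: 2 proliferation markers, 5 genes for cyclins and Cdk1, 6 for mitotic kinases, checkpoint and chromosomal passenger proteins, 11 for the anaphase-promoting complex, spindle, kinetochore and cytokinesis, 3 for nucleotide synthesis, and 10 for DNA replication. Totals ran from 1737067 to 7908638 counts per library, and at 37 genes in 23 libraries only 3 values were 0: Gins2 in 1 library each at 100 cells and at 0.1 ng, and Kif20a in 1 library at 0.1 ng. A count of 0 there allowed up to 1.62 CPM at 100 cells and 1.53 CPM at 0.1 ng (3 counts, counting error only).

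Replicate 3 of the 100-cell group stood apart from the other two. It held 3760980 counts, against 1923669 and 1849181 in replicates 1 and 2. Its B cell markers took 0.376% of counts, against 0.0270% and 0.0259% in replicates 1 and 2, and its neutrophil markers 0.207%, against at most 0.00449%. The erythroid markers took 0.171% in replicate 3 and at most 0.00941% in the others, the macrophage markers 0.147% and at most 0.00698%, and the plasma cell markers 0.0972% and at most 0.0158%. Its T cell markers took 0.386%, against 0.605% and 0.623%. Shares, called genes and counts of separated groups at 100 cells are therefore given with and without it; its part in them was not tested beyond that.

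Promoters of a few of these genes are shown because genes of mitosis and of DNA replication are known to carry different cell cycle motifs. RefSeq promoter windows on GRCm38.p6, from 250 bases before to 50 after each start, were at hand for 31 of the 37 genes, in 33 windows. Tpx2, Mcm4, Kif20a, Gins2, Ccna2 and Aurkb had none. As background, NF-Y binds CCAAT boxes, the DREAM and MuvB complexes bind the cell cycle genes homology region (CHR), and E2F factors bind GC-rich sites known as E2F sites. The letters searched, on both strands, were CCAAT for the NF-Y box and TTTGAA for CHR, with TTTGGCGC, TTTCGCGC, TTTCCCGC or TTTGCCGC for E2F. Overlapping matches were kept.

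The first 4 windows belong to genes of mitosis and its entry, in the order Mki67 (chr7:135716330-135716629, minus strand), Ccnb2 (chr9:70421505-70421804, minus strand), Cdk1 (chr10:69352863-69353162, minus strand) and Kif11 (chr19:37376132-37376431, plus strand). Each is printed 5′ to 3′ in the direction of the transcript, with every match in capitals.
Mki67: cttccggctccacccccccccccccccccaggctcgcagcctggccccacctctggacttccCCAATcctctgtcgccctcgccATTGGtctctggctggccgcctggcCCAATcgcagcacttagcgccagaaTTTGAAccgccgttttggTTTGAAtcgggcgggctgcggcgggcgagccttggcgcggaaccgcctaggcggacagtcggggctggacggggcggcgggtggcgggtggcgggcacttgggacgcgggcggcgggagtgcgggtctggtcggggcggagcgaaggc
Ccnb2: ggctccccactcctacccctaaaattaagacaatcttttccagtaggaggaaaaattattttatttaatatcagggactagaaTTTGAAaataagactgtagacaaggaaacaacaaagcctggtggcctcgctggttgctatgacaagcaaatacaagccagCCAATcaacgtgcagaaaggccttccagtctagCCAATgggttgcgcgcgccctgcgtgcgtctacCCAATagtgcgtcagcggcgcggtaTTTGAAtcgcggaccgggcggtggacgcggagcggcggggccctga
Cdk1: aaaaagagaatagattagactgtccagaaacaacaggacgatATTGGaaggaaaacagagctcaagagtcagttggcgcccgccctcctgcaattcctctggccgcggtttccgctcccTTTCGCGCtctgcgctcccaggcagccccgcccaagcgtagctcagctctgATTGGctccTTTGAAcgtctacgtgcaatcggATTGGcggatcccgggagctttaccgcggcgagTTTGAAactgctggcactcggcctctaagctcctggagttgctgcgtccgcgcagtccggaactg
Kif11: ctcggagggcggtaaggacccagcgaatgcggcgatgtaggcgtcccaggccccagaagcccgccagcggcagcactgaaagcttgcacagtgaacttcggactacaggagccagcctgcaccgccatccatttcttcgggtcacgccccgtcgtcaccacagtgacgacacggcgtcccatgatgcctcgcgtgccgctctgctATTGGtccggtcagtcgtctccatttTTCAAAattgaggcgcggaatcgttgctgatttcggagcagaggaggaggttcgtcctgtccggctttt
Mki67 held 3 CCAAT boxes upstream of 2 CHR matches, and Kif11 had 1 of each, both on the opposite strand within 50 bases of the start. Cdk1 had CCAAT, CHR and an E2F match.

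The next 2 windows belong to subunits of the replicative helicase, Mcm5 (chr8:75109259-75109558, plus strand) and Mcm6 (chr1:128359656-128359955, minus strand).
Mcm5: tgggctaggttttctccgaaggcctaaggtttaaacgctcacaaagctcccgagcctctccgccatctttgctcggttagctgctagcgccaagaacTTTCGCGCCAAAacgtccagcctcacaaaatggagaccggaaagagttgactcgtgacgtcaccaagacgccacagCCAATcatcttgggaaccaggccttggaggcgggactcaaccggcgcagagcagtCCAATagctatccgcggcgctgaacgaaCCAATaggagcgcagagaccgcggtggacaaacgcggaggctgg
Mcm6: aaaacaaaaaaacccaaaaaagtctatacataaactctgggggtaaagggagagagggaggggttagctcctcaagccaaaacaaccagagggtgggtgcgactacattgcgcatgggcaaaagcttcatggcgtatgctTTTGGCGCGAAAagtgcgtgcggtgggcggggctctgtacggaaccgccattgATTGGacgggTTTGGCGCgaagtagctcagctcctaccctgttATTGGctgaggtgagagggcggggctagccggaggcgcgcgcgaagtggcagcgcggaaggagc
Both held E2F letters on both strands at overlapping positions (TTTCGCGCCAAA in Mcm5 and TTTGGCGCGAAA in Mcm6) along with CCAAT boxes, and neither held CHR.

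Over all 33 windows, 27 (81.8%) held CCAAT, against 37.4% of the 32851 promoter windows of all genes. CHR letters were in 16 (48.5%), against 17.9%, and CCAAT together with CHR in 16 (48.5%), against 6.95%. E2F letters were in 6 (18.2%), against 2.26%. In the 21 windows of proliferation markers, cyclins and mitotic genes, 14 (66.7%) had CHR and 1 had an E2F match, in Cdk1. These 21 windows cover 20 genes, as the 2 windows of Prc1 overlap. Both hold the same CCAAT and CHR letters and are counted separately, here and in the totals above. In the 12 windows of nucleotide synthesis and replication genes, 2 (16.7%) had CHR, in Cdc45 and Mcm2, and 5 (41.7%) had E2F letters, in Cdc6, Mcm3, Mcm5, Mcm6 and Mcm7. These 12 windows cover 11 genes, as Mcm7 has a second window (chr5:138171217-138171516), which held CCAAT but no E2F letters. Ccne1, Birc5, Nusap1, Tacc3 and Tyms had none of these letters in the window. A match is a description of the letters and was not tested as a binding site.

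**Figure D1:**
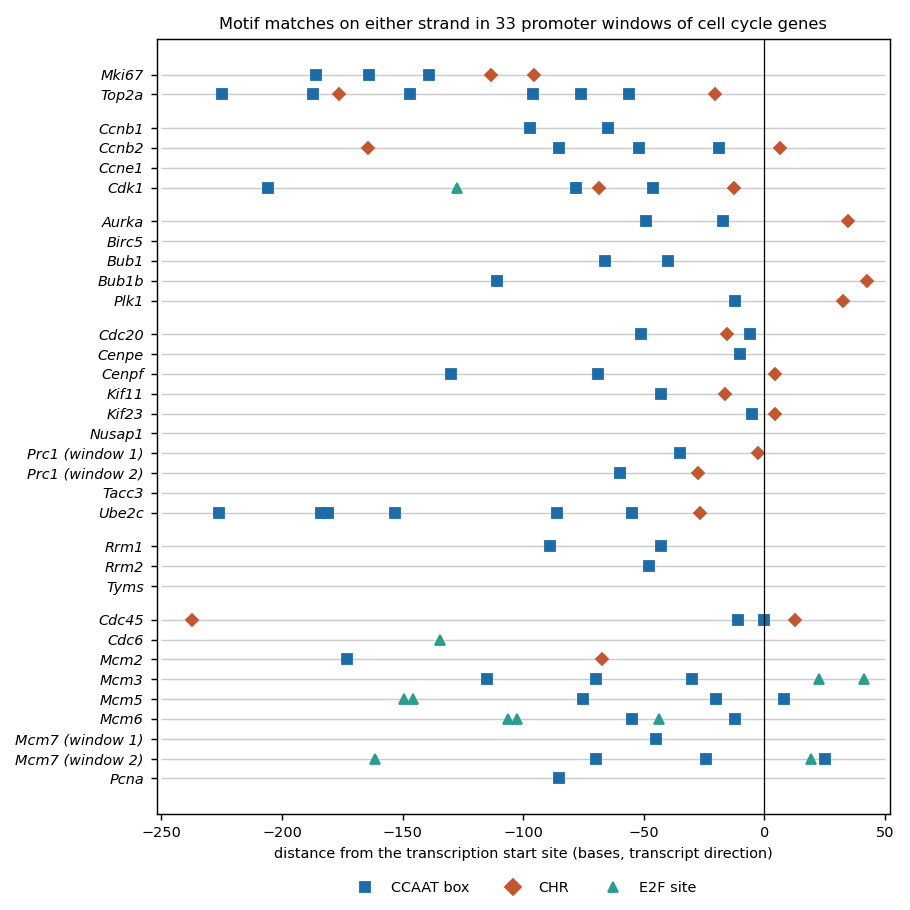
Matches of 3 motifs in the 33 promoter windows, 1 line per window, grouped by role from proliferation markers at the top to DNA replication at the bottom; the x axis is the distance from the start site in bases. CHR matches (diamonds) lie mostly in the upper 4 groups and E2F matches (triangles) mostly in the lowest group.

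As a whole, the 37 genes took a smaller share of the counts in T cells than in diluted RNA at every input. In T cells the share was 0.179 ± 0.0450% at 100 cells, 0.128 ± 0.00164% at 500, 0.141 ± 0.00404% at 1000 and 0.156 ± 0.00728% at 10000 (SD, n = 3 each). Without replicate 3 the 100-cell share was 0.154% over the other 2 libraries (0.147% and 0.160%). In diluted RNA it was 0.310 ± 0.0126% at 0.1 ng (n = 2), 0.324 ± 0.00325% at 0.5 ng, 0.3203 ± 0.00459% at 1 ng and 0.333 ± 0.00309% at 5 ng (n = 3 each). The highest T cell library, replicate 3 at 100 cells, reached 0.231%, and the lowest RNA library held 0.301%, so the 2 materials did not overlap. In such bulk samples, fewer dividing cells and less of these transcripts per cell cannot be told apart.

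By role, proliferation markers took 0.0263 ± 0.00183% of counts in 10000 T cells, against 0.0996 ± 0.00107% in 5 ng RNA. Mitotic kinases and checkpoint genes took 0.00625 ± 0.000451%, against 0.0191 ± 0.000498%. The replication genes took 0.0841 ± 0.00398% in 10000 T cells and 0.107 ± 0.00195% in 5 ng RNA. As a sum over 10 genes, they made up the largest share of the 6 groups in 10000 T cells and in 5 ng RNA alike. This did not hold at every RNA input. At 0.1 ng the 2 proliferation markers took 0.100 ± 0.00367% and the replication genes 0.0914 ± 0.00499% (n = 2). At 0.5 ng they were level, at 0.0985 ± 0.00158% and 0.0981 ± 0.00336% (n = 3).

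**Figure D2:**
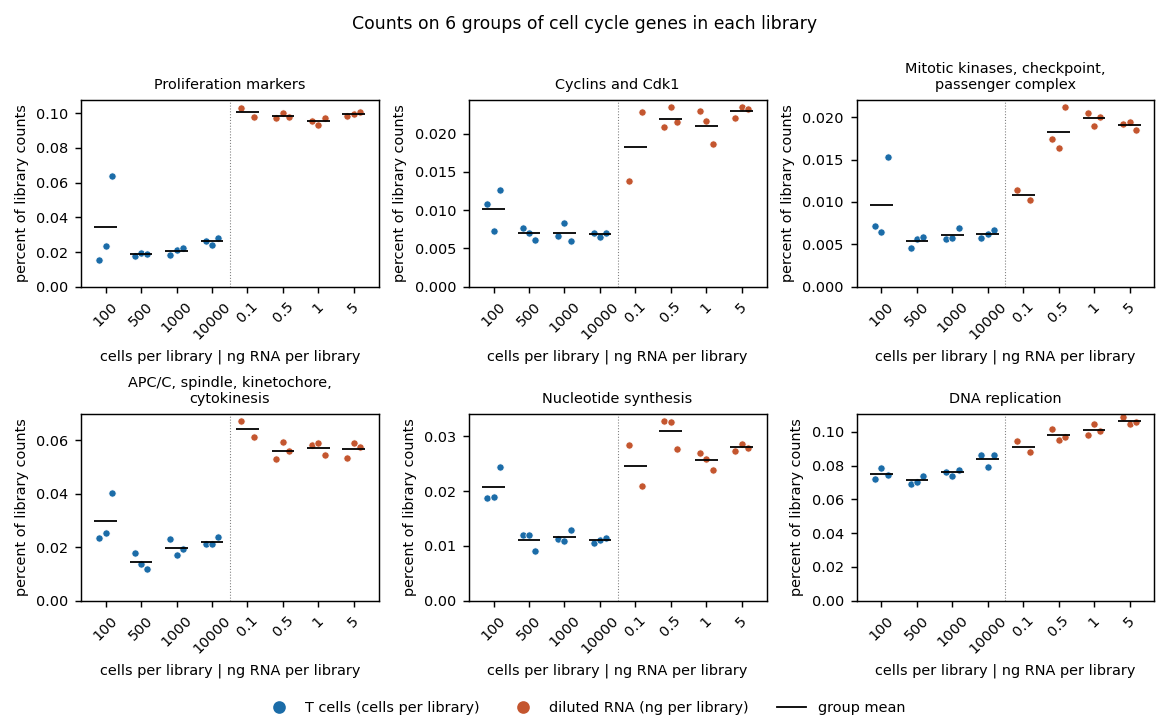
Percent of each library's counts on the 6 role groups (y axis, from 0), by cells or ng of RNA per library (x axis), with a point per library and a bar at each group mean. All T cell libraries of 500 to 10000 cells lie below all RNA libraries in each panel. Replicate 3 at 100 cells is the highest of its group in 5 of the 6 panels, all but DNA replication. For cyclins and Cdk1 its margin is small (0.0126%, against 0.0108% in replicate 1).

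The first comparison asked how 10000 T cells differed from 5 ng of diluted RNA, the largest input of each material. In this comparison 36 of the 37 genes were lower in T cells and 0 higher by the quasi-likelihood test of edgeR, with p adjusted over all genes by the Benjamini-Hochberg method. Across all 14425 genes tested, 27.3% were called lower and 28.7% higher. The median log2 fold change (T cells minus RNA) was -1.33 over the 37 genes and 0.03 over all genes. In 34 of the 37 genes all 3 T cell libraries lay below all 3 RNA libraries, against 25.1% of genes tested; the 3 that overlapped were Tyms, Mcm4 and Pcna. With all 23 libraries in 1 fit the calls of Ccne1, Kif20a, Prc1, Tyms, Cdc6, Pcna and the 5 helicase genes other than Mcm6 were lost, leaving 25. Markers of other cells moved with this contrast: all 10 B cell, 15 erythroid, 12 neutrophil and 14 macrophage markers were also lower in T cells, whose summed levels were 0.0396%, 0.0156%, 0.00599% and 0.0126% of counts. None of these markers was at 0 in every library of either group. All 12 T cell markers were higher, at 0.691 ± 0.0165% in T cells and 0.172 ± 0.00604% in RNA. All 7 plasma cell markers and 6 of 7 germinal centre B cell markers were lower, while Fas of the second list was higher. Of 6 natural killer markers 2 were higher and 3 lower, and of 5 megakaryocyte markers tested 4 were lower, with Gp1bb at 0 in all libraries. The part of these cell types in the cell cycle result was not tested.

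Both proliferation markers were lower in T cells. Mki67, which coats mitotic chromosomes, had 164, 138 and 172 CPM in the 10000-cell libraries, against 657, 691 and 688 CPM at 5 ng, a log2 fold change of -2.22 ± 0.0599 (SE, adjusted p = 1.4e-40). Top2a, the topoisomerase that untangles sister chromatids, had 102, 105 and 107 CPM, against 329, 304 and 319.6 CPM, a log2 fold change of -1.71 ± 0.0695 (adjusted p = 4.5e-31). In both genes the highest T cell library stayed far below the lowest RNA library.

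All 5 genes of the cyclins and Cdk1 were lower, with a median log2 fold change of -2.18. Ccna2, the cyclin of S phase and mitotic entry, had 18.1, 14.9 and 14.4 CPM in 10000 T cells, against 72.9, 77.1 and 78.4 CPM at 5 ng. Cdk1, the kinase of mitosis, had 11.2, 7.99 and 9.70 CPM, against 40.2, 43.8 and 37.6 CPM. Their log2 fold changes were -2.38 ± 0.153 and -2.18 ± 0.202, and those of the mitotic cyclins Ccnb2 and Ccnb1 were -2.33 ± 0.204 and -2.16 ± 0.201. Ccne1, the cyclin of S phase entry, moved least, with 20.4, 25.4 and 27.6 CPM in T cells, against 29.2, 29.9 and 34.0 CPM in RNA. Its groups did not overlap, and its log2 fold change was -0.46 ± 0.179 (adjusted p = 0.025), a call that was lost without replicate 1 at 10000 cells (-0.38, adjusted p = 0.092) or without replicate 3 at 5 ng (-0.39, adjusted p = 0.11).

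All 6 mitotic kinase, checkpoint and passenger genes were lower, with log2 fold changes between -2.06 and -1.39. Bub1b, a checkpoint protein that holds back anaphase, had 12.5, 18.7 and 17.0 CPM in T cells, against 56.9, 49.5 and 46.5 CPM in RNA. Aurka, a kinase of spindle poles, had 11.7, 7.72 and 12.3 CPM, against 27.9, 35.2 and 25.2 CPM. Plk1, a kinase with tasks throughout mitosis, had 6.13, 11.6 and 12.9 CPM, against 25.3, 33.5 and 28.8 CPM. No T cell library reached the level of any RNA library in these 3 genes. The kinase Aurkb (-2.06 ± 0.236) and its partner in the passenger complex, Birc5 (-1.87 ± 0.227), had the 2 largest falls of the group, and the checkpoint kinase Bub1 the smallest (-1.39 ± 0.241).

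The 11 genes of the anaphase-promoting complex, spindle and cytokinesis were all lower, over a wide range. Ube2c, the ubiquitin-conjugating enzyme of the complex, had 4.74, 9.37 and 11.5 CPM in T cells, against 42.2, 48.7 and 48.8 CPM in RNA, and its log2 fold change of -2.57 ± 0.210 was the largest fall of the 37 genes. Kif11, the motor that pushes spindle poles apart, had 29.0, 14.3 and 25.9 CPM, against 87.3, 87.0 and 83.1 CPM (-2.01 ± 0.149). Cdc20, which activates the complex, and Nusap1, which bundles spindle microtubules, fell by similar amounts (-2.04 ± 0.208 and -1.98 ± 0.18). The spindle assembly factor Tpx2 had -1.75 ± 0.176.

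Smaller falls were seen in the kinetochore and midzone genes of this group. Cenpf had 29.0, 34.7 and 45.9 CPM in T cells, against 70.5, 92.9 and 74.5 CPM in RNA, and the kinetochore motor Cenpe had 36.5, 27.6 and 25.3 CPM, against 57.7, 65.7 and 69.4 CPM. Their log2 fold changes were -1.23 ± 0.137 and -1.22 ± 0.145. Tacc3, which stabilises spindle microtubules, had -1.07 ± 0.162, and the midzone motors and bundler Kif20a, Kif23 and Prc1 had -1.05 ± 0.243, -0.98 ± 0.145 and -0.86 ± 0.198. All of these groups were apart.

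The 3 nucleotide synthesis genes differed in size of change. Rrm2, the subunit of ribonucleotide reductase made in S phase, had 15.3, 16.5 and 22.9 CPM in T cells, against 88.1, 85.8 and 88.8 CPM in RNA (-2.38 ± 0.145). Rrm1, its partner subunit, which persists outside S phase, had 78.9, 73.1 and 77.3 CPM, against 168, 172 and 167 CPM (-1.26 ± 0.0855). Tyms, which makes thymidylate, had 11.2, 20.7 and 13.2 CPM, against 17.0, 28.4 and 23.6 CPM. The Tyms groups overlapped, and its call (-0.73 ± 0.229, adjusted p = 0.0055) was lost without replicate 2 at 5 ng (-0.56, adjusted p = 0.067).

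Of the 10 replication genes 9 were called lower, with the smallest changes of any group (median log2 fold change -0.55). Mcm6, a subunit of the helicase, had 129.7, 127 and 138 CPM in 10000 T cells, against 175, 198 and 179 CPM at 5 ng (-0.60 ± 0.0762). Mcm2, another subunit, had 126, 119 and 115 CPM, against 138, 142 and 152 CPM (-0.38 ± 0.0815). Mcm5 had 91.2, 73.6 and 97.0 CPM, against 150.4, 140.3 and 137 CPM, the largest fall of the 6 helicase subunits (-0.82 ± 0.0912). The other subunits Mcm3, Mcm7 and Mcm4 had -0.50 ± 0.0868, -0.35 ± 0.0913 and -0.20 ± 0.0878.

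Pcna, the sliding clamp of DNA polymerases, had 161, 141 and 168 CPM in T cells, against 171, 158 and 163 CPM in RNA. The groups overlapped, and the log2 fold change was the smallest of all 37 genes (-0.18 ± 0.0755, adjusted p = 0.036). The Pcna call was lost without replicate 2 at 10000 cells (adjusted p = 0.11), replicate 1 at 5 ng (0.097) or replicate 3 at 5 ng (0.060). The same left-out libraries ended the Mcm4 call (adjusted p = 0.16, 0.21 and 0.069). With DESeq2 size factors neither passed (adjusted p = 0.093 for Pcna and 0.10 for Mcm4), and by DESeq2 Mcm4 did not (0.059). The 3 less abundant genes of loading and firing came last. The loader Cdc6 had -1.33 ± 0.267, the helicase activator Cdc45 had -1.31 ± 0.235, and Gins2, a further activator with 2.23, 3.86 and 4.12 CPM in T cells against 6.43, 6.41 and 4.68 CPM in RNA, was not called (-0.89 ± 0.452, adjusted p = 0.090).

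**Figure D3:**
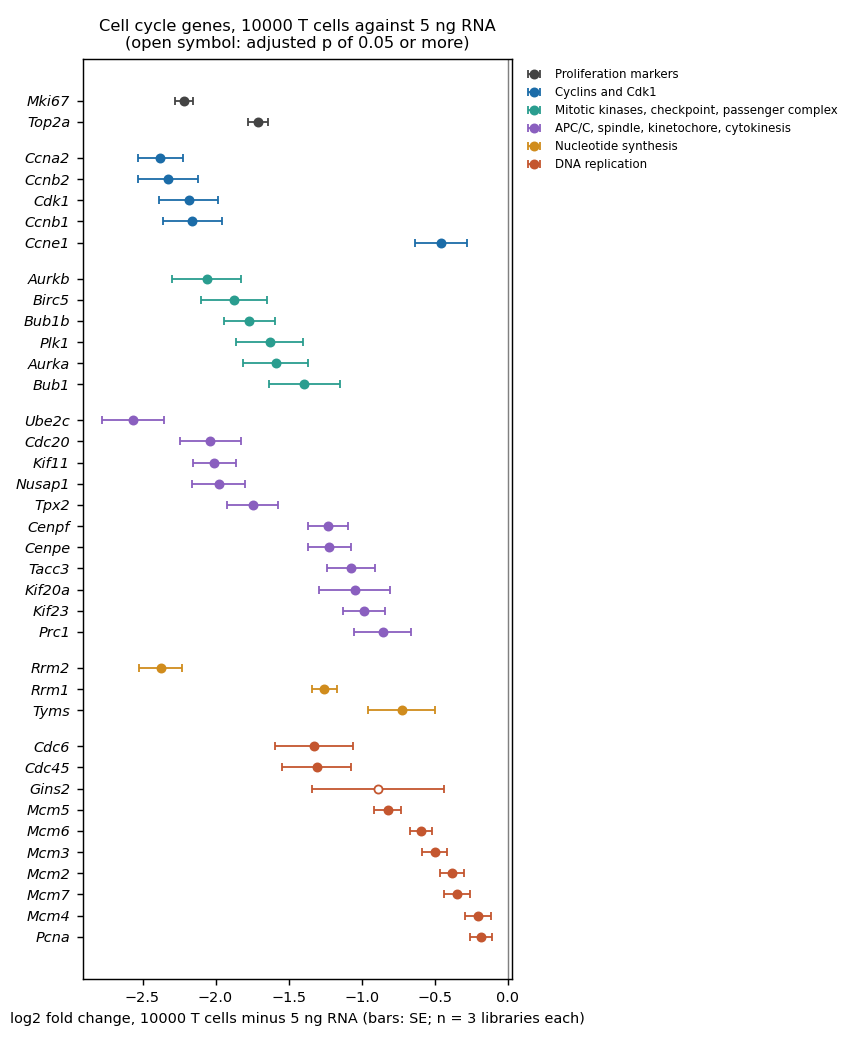
Log2 fold change of each of the 37 genes (rows, grouped by role), 10000 T cells minus 5 ng RNA, on the x axis with SE bars (n = 3 libraries each). All points lie left of 0, from -2.57 for Ube2c to -0.18 for Pcna, and the single open symbol is Gins2.

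Per kb of exon length, the order of the genes differed between the materials, as a description of levels. The length joins the exons of all annotated transcripts of a gene. It can exceed the length of the transcript present, which would shift ranks within a material. In 10000 T cells Pcna was highest at 65.3 ± 5.71 CPM per kb, followed by the 6 helicase subunits, from Mcm4 at 33.3 ± 3.72 to Mcm2 at 17.2 ± 0.829, and Mki67 was eighth at 15.7 ± 1.76. In that order Mcm6 (28.2 ± 1.22) and Mcm3 (28.1 ± 2.51) did not differ beyond their spread. Neither did Mcm7 (22.4 ± 2.54) and Mcm5 (21.9 ± 3.05), nor Mcm2 and Mki67. In 5 ng RNA Pcna (68.5 ± 2.73) and Mki67 (67.4 ± 1.87) stood together at the top, within their spread, and Mcm6 came next at 39.5 ± 2.70, with Mcm3 (36.8 ± 2.44) within its spread. Mcm5 (35.7 ± 1.73), Mcm4 (35.4 ± 3.18) and Top2a (35.3 ± 1.38) lay within the spread of Mcm3. The lowest gene was Gins2 in both, at 0.830 ± 0.249 CPM per kb in T cells and 1.43 ± 0.245 in RNA.

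The same question was put to the smaller inputs, in separate libraries. With 1000 T cells against 1 ng RNA, 30 of 36 genes tested were lower and 0 higher, against 20.0% of 12656 genes lower and 20.1% higher. The uncalled genes were Ccne1, Kif20a, Mcm4, Mcm7, Pcna and Tyms, and Gins2 was too low to be tested. With 500 T cells against 0.5 ng RNA, 29 of 37 were lower and 0 higher, against 18.1% of 13001 genes lower and 19.0% higher. Here Ccne1, Cdc45, Cdc6, Gins2, Mcm7, Pcna, Prc1 and Tyms were not called. At 1000 cells all T cell libraries lay below all RNA libraries in 30 genes, against 24.2% of genes tested.

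At all 3 inputs from 500 cells upward, 27 of the 36 genes tested in each were called lower, against 1763 of the 11896 genes tested in each (14.8%). In the main fits Ccne1, Mcm7, Pcna and Tyms were called only at 10000 cells. No test compared these calls between inputs beyond the interaction given below. Mcm7 was also called at 1000 cells by DESeq2, without a filter on low counts and with the replicate number as a block. Tyms was called at 500 cells by DESeq2 (-0.79, adjusted p = 0.042). The median log2 fold change at 1000 cells was -2.16 for proliferation markers, -2.02 for cyclins and Cdk1, -1.79 for mitotic kinases and checkpoint genes, -1.82 for spindle and cytokinesis genes, -1.14 for nucleotide synthesis and -0.55 for replication. At 500 cells these medians were -2.38, -2.06, -1.84, -2.36, -1.25 and -0.53. All genes tested had medians of 0.04 at 1000 cells and 0.06 at 500 cells. Some calls changed when 1 library was left out. At 1000 cells Cdc45 (-0.93 ± 0.370, adjusted p = 0.049) was lost without any of 5 libraries (adjusted p between 0.070 and 0.16), all but replicate 3 at 1000 cells, and Mcm7 (-0.41 ± 0.167, adjusted p = 0.051) was called without that replicate (-0.67). At 500 cells Birc5, Kif20a, Mcm4 and Mcm5 were each lost without 1 library at 0.5 ng (adjusted p = 0.061, 0.062, 0.060 and 0.051, without replicates 3, 2, 3 and 1), and Prc1 was called without replicate 1 at 500 cells (-1.54). With all 23 libraries in 1 fit, the calls of Plk1, Cdc6, Mcm5, Mcm6 and Cdc45 at 1000 cells were lost (adjusted p = 0.053, 0.065, 0.11, 0.084 and 0.15), as were those of Kif20a and Mcm5 at 500 cells (0.097 and 0.32).

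**Figure D4:**
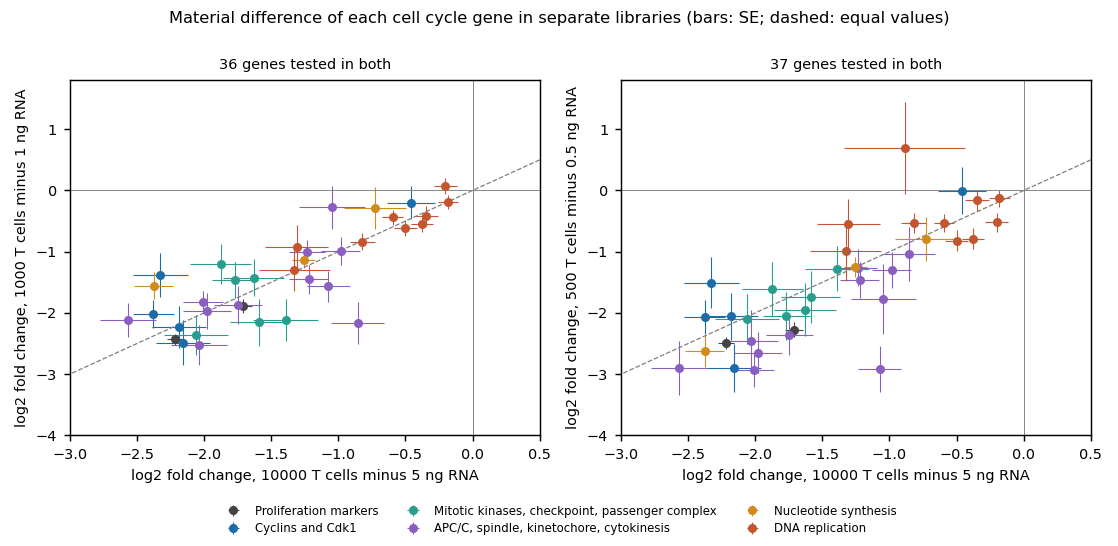
Each gene's log2 fold change between T cells and RNA at 1000 cells and 1 ng (left) or 500 cells and 0.5 ng (right) on the y axis, against that at 10000 cells and 5 ng on the x axis; bars are SE and the dashed line marks equal values. Pcna and most Mcm genes lie toward the upper right and most mitotic genes toward the lower left; Gins2 is the point above 0 at 500 cells.

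At 100 T cells against 0.1 ng RNA no gene of the 37 passed. There were 36 tested, and over all 13073 genes 7 were called, none of them lower (0.0535% in all). An unadjusted p under 0.05 was reached by 7 of the 36 genes and by 2049 of all genes, and DESeq2 called 4 of the 36, Mki67, Top2a, Ube2c and Kif11, all lower, against 684 of all genes (3.32%). Without replicate 3 at 100 cells edgeR called 545 genes (4.46%), among them Mki67 (-2.18 ± 0.304, adjusted p = 0.0073) and Top2a (-2.73 ± 0.285, adjusted p = 0.0017), both lower in T cells. T cell libraries lay below both RNA libraries in 11 genes, against 16.4% of genes tested, and without replicate 3 in 18 genes, against 24.4%. Mki67 had 99.8, 184 and 433 CPM in the 100-cell libraries, against 646 and 664 CPM at 0.1 ng. Kif11 had 43.7, 19.5 and 58.2 CPM, against 113 and 160.0 CPM. In both genes replicate 3 was the T cell library nearest to the RNA.

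Over every input, 6 genes had all 12 T cell libraries below all 11 RNA libraries: Mki67, Top2a, Ccnb2, Ube2c, Kif11 and Nusap1. Among the 14425 genes tested at the largest input, 4.68% did so. Without replicate 3 at 100 cells there were 11, with Ccna2, Aurka, Bub1b, Cenpe and Rrm2 added (7.16% of genes). Ccnb2, one of the 6, ran from 4.05 to 19.9 CPM in T cells, against 25.4 to 66.8 CPM in RNA. All 6 belong to the groups of markers, cyclins and mitosis, which hold most of the 37 genes (2, 5, 6 and 11 by role group). None belongs to nucleotide synthesis (3 genes) or replication (10 genes). Whether this split departs from the group sizes was not tested.

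**Figure D5:**
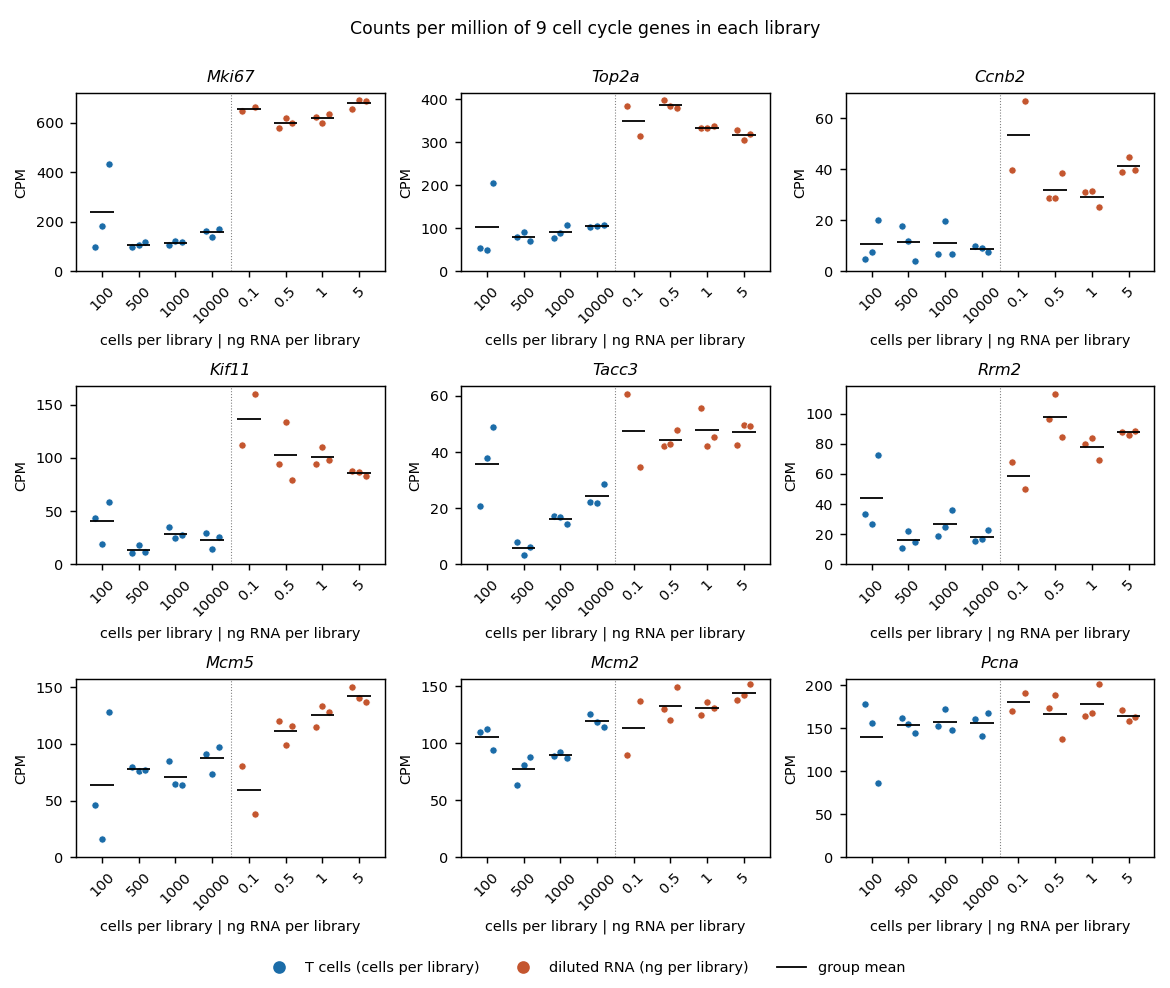
CPM of 9 of the genes (y axis, from 0) in each library by cells or ng of RNA (x axis), with a point per library and a bar at each group mean. Mki67, Top2a, Ccnb2 and Kif11 are apart in the 2 materials at every input, Pcna overlaps at every input, and replicate 3 at 100 cells is the high T cell point for Mki67 (433 CPM) and Top2a (206 CPM).

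Replicate 3 at 100 cells was the highest of its group in 23 of the 37 genes, against 35.0% of 18037 genes with a mean of at least 1 CPM there. It was highest for both proliferation markers, 3 of 5 cyclin and Cdk1 genes, 5 of 6 kinase and checkpoint genes, 8 of 11 spindle genes, 2 of 3 nucleotide genes and 3 of 10 replication genes. Aurka had 43.9 CPM in it, against 6.24 and 6.49 CPM in the others, and Mcm5 had 128 CPM, against 46.3 and 16.2 CPM. Pcna went the other way, with 86.7 CPM in replicate 3 and 178 and 156 CPM in the others. This library is also the one with B cell, neutrophil and erythroid counts given above.

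Within T cells, smaller inputs were compared with 10000 cells to ask how these genes vary with the amount of starting material. At 100 cells none of the 36 genes tested passed, and edgeR called 0 of all 14099 genes. An unadjusted p under 0.05 was reached by 1686 genes and 4 of the 36, and DESeq2 called 349 genes, of which Rrm1 was the only one of the 36 (higher, 0.94). Without replicate 3 edgeR called 357 genes, including Rrm1 (higher, 0.86 ± 0.155, adjusted p = 0.035) and Top2a (lower, -1.05 ± 0.181, adjusted p = 0.032). Rrm1 had 148, 135 and 150.2 CPM at 100 cells, above every library at 500 cells (59.8 to 95.6 CPM), 1000 cells (69.0 to 72.9 CPM) and 10000 cells (73.1 to 78.9 CPM). Replicate 3 did not stand apart in Rrm1.

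At 500 cells 4 genes fell relative to 10000 cells and 0 rose, against 2.46% of 13674 genes lower and 0.746% higher. Tacc3 had 8.04, 3.495 and 6.30 CPM at 500 cells, against 22.3, 21.8 and 28.5 CPM at 10000, a log2 fold change of -2.04 ± 0.387 (adjusted p = 0.0029). The Tacc3 libraries at 100 cells (20.8 to 48.9 CPM) and 1000 cells (14.4 to 17.3 CPM) were all above those at 500. Mki67 had 97.8, 106 and 118 CPM at 500 cells, against the 10000-cell values above (-0.57 ± 0.133, adjusted p = 0.018). Mcm2 had 63.9, 81.2 and 88.2 CPM (-0.63 ± 0.152, adjusted p = 0.021), and Mcm3 had 67.9, 61.4 and 80.1 CPM, against 97.9, 116 and 103 CPM (-0.61 ± 0.160, adjusted p = 0.036). None of these 4 genes overlapped between the inputs, but they were chosen by their calls in the same libraries. Their separation is therefore no further support. Markers of other cells differed here too: plasma cell markers took 0.0477 ± 0.00416% of counts at 500 cells and 0.0105 ± 0.000502% at 10000, B cell markers 0.0547 ± 0.00209% and 0.0396 ± 0.00107%, erythroid markers 0.02498 ± 0.00108% and 0.0156 ± 0.00110%, and macrophage markers 0.00699 ± 0.000635% and 0.0126 ± 0.000356%. Neutrophil markers took 0.00372 ± 0.000459% and 0.00599 ± 0.000701%, and T cell markers 0.649 ± 0.00653% and 0.691 ± 0.0165%. The part of these markers in the calls was not tested. At 1000 cells only Mki67 was called, with 107, 123 and 117 CPM (-0.43 ± 0.118, adjusted p = 0.034), against 2.04% of 13415 genes lower and 1.23% higher. Erythroid markers took 0.0376 ± 0.00197% of counts at 1000 cells and macrophage markers 0.0156 ± 0.00221%, both above their 10000-cell values. B cell markers took 0.0346 ± 0.00291%, which was below, and plasma cell markers 0.0111 ± 0.000612%, which was close. Their part in the Mki67 call was not tested.

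These input calls were not robust to single libraries. Of the 4 genes at 500 cells, 2 remained called without replicate 1 at 500 cells (Tacc3, Mki67), 1 without replicate 1 at 10000 (Tacc3), 2 without replicate 2 at 10000 (Tacc3, Mki67) and 0 without replicate 3 at 10000, where Tacc3 had -1.91 (adjusted p = 0.055). Mcm3 was also lost without replicate 2 at 500 cells (adjusted p = 0.075). The Mki67 call at 1000 cells was lost without replicate 1 at 1000 cells (adjusted p = 0.086), replicate 1 at 10000 (0.20) or replicate 3 at 10000 (0.27). A slope over log10 of the cell number was called for 0 of the 37 genes, against 115 of 15128 genes (0.76%); 6 of the 37 and 1923 of all genes had an unadjusted p under 0.05, and DESeq2 called Rrm1 (-0.45 per 10-fold more cells). Without replicate 3 at 100 cells edgeR called Top2a, higher with more cells (0.46 ± 0.117 per 10-fold, adjusted p = 0.047).

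Within diluted RNA, 2 genes fell at 0.1 ng relative to 5 ng and 0 rose, against 6.55% of 13982 genes lower and 4.69% higher. Bub1 had 2.55 and 5.76 CPM at 0.1 ng, against 24.0, 21.1 and 26.2 CPM at 5 ng (-2.57 ± 0.494, adjusted p = 0.034). Mcm5 had 80.5 and 38.6 CPM, against 150.4, 140.3 and 137 CPM (-1.30 ± 0.296, adjusted p = 0.046). Both were apart from 5 ng in the same libraries that gave the calls, which is no further support. Bub1 was also below every library at 0.5 and 1 ng (22.5 to 36.5 CPM). With 2 libraries at 0.1 ng the fit hung on single libraries: both calls were lost without any 1 of the 5 ng libraries (adjusted p between 0.16 and 0.18), and 20 or 23 genes were called without replicate 1 or 2 at 0.1 ng, when 1 library stood for the group and was assumed to vary as the 5 ng libraries did. In these 2 fits 7869 and 8075 of all genes were called (52.8% and 54.4%). The 2 libraries at 0.1 ng differed widely in low genes: Cdk1 had 17.3 and 1.15 CPM, Cdc20 10.2 and 48.9 CPM, and Kif20a 0 and 31.7 CPM.

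At 0.5 ng Top2a rose, with 397, 383 and 379 CPM against 329, 304 and 319.6 CPM at 5 ng (0.28 ± 0.0596, adjusted p = 0.0091; 2.87% of 12558 genes were higher). Mki67 fell slightly, with 578, 620.1 and 598 CPM (-0.18 ± 0.0492, adjusted p = 0.035), as did Cenpf (-0.67 ± 0.173, adjusted p = 0.029) and Mcm5 (-0.35 ± 0.0997, adjusted p = 0.044), against 2.21% of genes lower. None of the 4 was called without replicate 2 or without replicate 3 at 5 ng, and Top2a alone was called without replicate 1 at 5 ng. Of the 0.5 ng libraries, leaving out replicate 1 ended the calls of Mki67 (adjusted p = 0.061) and Cenpf (0.070), replicate 2 that of Mcm5 (0.095) and replicate 3 that of Cenpf (0.052). At 1 ng 0 of the 37 genes passed by edgeR, as did 3 of 12616 genes in all (0.0238%); an unadjusted p under 0.05 was reached by 7 of the 37 and 1317 genes, and DESeq2 called 105 genes and 0 of the 37.

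A slope over log10 of the RNA amount was called for Mcm5, which gained 0.66 ± 0.147 on the log2 scale per 10-fold more RNA (adjusted p = 0.014), against 2.12% of 13948 genes higher and 3.56% lower. Its CPM was 80.5 and 38.6 at 0.1 ng, 120.2, 99.0 and 116 at 0.5 ng, 115, 133 and 128 at 1 ng and 150.4, 140.3 and 137 at 5 ng. The call held without each of the 11 libraries in turn (0.44 to 0.73), with the lowest value when replicate 2 at 0.1 ng was left out. Kif11 was also called without replicate 3 at 0.5 ng (-0.39).

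The interaction tested whether the gap between T cells and RNA at a smaller input differed from that at 10000 cells and 5 ng. It passed for Rrm1 at 100 cells and 0.1 ng (1.37 ± 0.226, adjusted p = 0.017; 0.899% of 17022 genes were higher and 0.241% lower). There Rrm1 had the 148, 135 and 150.2 CPM given above in the 100-cell libraries, against 142 and 120.3 CPM in RNA, so the materials overlapped at this input and were apart at 10000 cells. Without replicate 3 at 100 cells the Rrm1 value was 1.44 ± 0.208, and Top2a (-0.98 ± 0.186), Bub1 (3.21 ± 0.842) and Rrm2 (1.46 ± 0.380) also passed, among 1148 of all genes (6.98%). Rrm1 was not called when any library at 10000 cells or 5 ng was left out (adjusted p between 0.070 and 0.081). At 500 cells and 0.5 ng it passed for Top2a (-0.61 ± 0.132, adjusted p = 0.0077) and Tacc3 (-1.89 ± 0.371, adjusted p = 0.0026), whose gaps were wider than at the largest input (0.781% of 15493 genes lower and 1.17% higher). Both were called without each library in turn, and neither with all 23 libraries in 1 fit (adjusted p = 0.92 and 0.25). At 1000 cells and 1 ng 0 of the 37 passed by edgeR, against 209 of 15190 genes (1.38%), with 4 of the 37 and 1978 genes at an unadjusted p under 0.05 and 1 of the 37 by DESeq2. With 1 library left out, Rrm2 passed without replicate 1 at 1000 cells (0.94 ± 0.257), and Prc1 without replicate 2 at 1000 cells (-1.66 ± 0.406) or replicate 3 at 1 ng (-1.47 ± 0.393).

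To set these genes among others of the same process, 101 further cell cycle genes were listed, of which 97 could be tested in 10000 T cells against 5 ng RNA. The test called 66 lower and 3 higher, where 27.3% of all genes were lower and 28.7% higher, with a median log2 fold change of -0.94. Of 42 further mitosis genes 36 were lower and 1 higher (median -1.22), of 25 replication genes 15 were lower and 0 higher (-0.71), and of 15 transcription regulators 8 were lower and 0 higher (-0.49). Of 8 drivers of G1 phase 4 were lower and 1 higher (-0.34), and of 7 brakes 3 were lower and 1 higher (-0.05).

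The largest falls were Ccnd1, a D-type cyclin, whose mean was 2.25 ± 1.43 CPM in 10000 T cells, against 29.0 ± 4.202 CPM in 5 ng RNA (SD, n = 3 each) (-3.78 ± 0.308), E2f8, a repressor among the E2F factors, with 6.69 ± 1.58 and 33.4 ± 1.27 CPM (-2.43 ± 0.229), the kinase inhibitor Cdkn1a (-2.17 ± 0.623) and the centrosome kinase Nek2 (-2.15 ± 0.250). The 3 that rose were Ccnd2, Smc4 and Rbl2. Ccnd2, another D-type cyclin, had a mean of 747.6 ± 34.3 CPM in 10000 T cells, against 334.5 ± 17.1 CPM in 5 ng RNA (1.05 ± 0.0505). The condensin subunit Smc4 had 987 ± 65.4 and 452 ± 20.4 CPM (1.02 ± 0.0483), and Rbl2, a pocket protein of resting cells, had 0.27 ± 0.0904. Ccnd1 and Ccnd2 thus moved in opposite directions.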

How the data were processed

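The deposited table holds whole-number counts per gene, which the authors did not normalize. Per the submitters' processing notes, the reads went through HISAT2 2.1.0 and featureCounts (version not given), with mm8 named as build; strand and multi-mapping settings are not given in the sources used here. Pcna, Tyms and Ccnb1 have processed pseudogenes in mouse, so their counts are uncertain. Between 57.9% and 70.7% of nonzero counts per library were even, so both mates of a pair may be counted. The labels do not say that replicates were separate animals or dilutions, so p-values may measure technical spread only.

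Groups were compared with edgeR 4.0.16 (R 4.3.3): TMM factors, filterByExpr, quasi-likelihood test, Benjamini-Hochberg adjustment over all genes, threshold 0.05, each fit holding only the libraries compared. SE is the absolute log2 fold change over the root of F. DESeq2 1.42.0 was an alternative. The scripts were tested on simulated data. Same-numbered libraries did not deviate together (28 pairs, residual correlations -0.0215 to 0.0317). Whether they shared animals or a preparation was not tested. Exon lengths came from GENCODE M21 (GRCm38; 99.6% of symbols), promoters from RefSeq GRCm38.p6; both builds differ from mm8. The genes, role groups and lists were chosen with earlier results of these data known. Genes given per library were the 3 most abundant of each role over 10000 cells and 5 ng, and any gene called in an input comparison, slope or interaction; Ccnb2, Ube2c, Gins2, Kif20a, Cdc20 and genes named as uncalled, lost or at the ends of a range were added after their values were seen. Of the other lists, the 4 largest changes in each direction and the 2 most abundant markers were named.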

Additional observations from a re-analysis of the deposited data

Results flagged for a closer look

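For 3 genes the gap between T cells and diluted RNA differed between inputs by the interaction test, and each is given as a value. Rrm1 had an interaction of 1.37 on the log2 scale at 100 cells and 0.1 ng against 10000 cells and 5 ng: its log2 fold change was 0.16 ± 0.292 at the small input and -1.26 ± 0.0855 at the large one, and the test passed by edgeR but not with the replicate block or without any 1 library of the large input. Top2a had -0.61 at 500 cells and 0.5 ng, with log2 fold changes of -2.28 ± 0.120 and -1.71 ± 0.0695. Tacc3 had -1.89 at 500 cells and 0.5 ng, with -2.91 ± 0.375 and -1.07 ± 0.162. The 3 Tacc3 libraries at 500 cells were below every other T cell library, and Top2a was higher at 0.5 ng than at 5 ng.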

How the results depend on the processing

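Over 15 comparisons and 5 other settings, most counts of called genes stayed within 1.5 times the reported one. Percentages in parentheses give all genes called by the same fit, in either direction. The largest-input count of 36 (56.0%) became 35 by DESeq2 (46.2%), 34 with DESeq2 size factors (56.1%), 36 without a filter (46.5%), 36 with the replicate number as a block (53.9%) and 25 with all 23 libraries in 1 fit (26.8%). No scaling turned the sign of any of the 37 genes there; DESeq2 and the lack of a filter moved the median of all genes by over 0.1, to 0.34 and 0.24 on the log2 scale.

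For 100 cells against 0.1 ng the count of 0 (0.0535%) became 4 by DESeq2 (3.32%), 4 without a filter (3.37%), 6 with the replicate block (8.88%) and 10 with all 23 libraries (31.0%). With 0.1 ng holding replicates 1 and 2 only, the block term for replicate 3 covered replicate 3 at 100 cells alone. That library was therefore fitted by its own term and did not enter the estimated difference. Within T cells it moved from 0 at 100 cells to 1 by DESeq2 (1.62%) and 3 with all libraries (5.03%), from 4 at 500 cells to 1 with all libraries (0.314%), and from 1 at 1000 cells to 3 by DESeq2 (3.61%), 2 without a filter (2.45%) and 0 with all libraries (0.171%). Within RNA it moved from 2 at 0.1 ng (11.2%) to 8 by DESeq2 (14.6%), 1 with size factors (10.9%) and 5 with all libraries (18.6%), and from 4 at 0.5 ng (5.09%) to 0 with all libraries (0.00796%). The slope over cells gave 1 by DESeq2 (1.28%), and the slope over ng 4 by DESeq2 (8.21%) and 3 with size factors (7.10%). The interaction at 100 cells gave 5 by DESeq2 (6.35%), 0 with the replicate block (0.112%) and 5 with all libraries (8.72%), that at 500 cells 0 with all libraries (0.0387%), and that at 1000 cells 1 by DESeq2 (2.57%) and 1 without a filter (1.23%). The block moved no other count by over 1.5 times. Of the genes given above it left uncalled the Rrm1 interaction (1.37, adjusted p = 0.0687), Bub1 at 0.1 ng (-2.56, adjusted p = 0.26) and Cdc45 at 1000 cells (-0.98, adjusted p = 0.059). In the blocked fit of 0.1 against 5 ng, replicate 3 at 5 ng was likewise fitted by its own term. The cause of these changes was not tested.

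Leaving out each library in turn gave, over the inputs from 10000 down to 100 cells, 33 to 36 genes (51.1% to 52.9% of all genes), 29 to 31 (36.0% to 38.0%), 27 to 30 (31.7% to 33.8%) and 0 to 2 (0% to 4.46%) between materials. Within T cells it gave 0 to 2 at 100 cells (0% to 2.36%), 0 to 4 at 500 (1.06% to 3.32%) and 0 to 1 at 1000 (1.32% to 2.74%). Within RNA the ranges were 0 to 23 for 0.1 ng (0% to 54.4%), 0 to 4 for 0.5 ng (1.37% to 6.01%) and 0 to 0 for 1 ng (0.0148% to 0.333%). The slopes gave 0 to 1 over cells (0.0846% to 1.11%) and 1 to 2 over ng (3.08% to 6.22%). The interactions gave 0 to 4 at 100 cells (0.0660% to 6.98%), 2 to 3 at 500 (0.950% to 2.79%) and 0 to 1 at 1000 (0.675% to 1.83%). Genes near 0 changed sign: Tyms at 1000 cells had 0.00098 without replicate 2 there, Mcm4 at 1000 cells -0.0185 without a filter, and Ccne1 at 500 cells 0.0012 by DESeq2, 0.0185 with size factors, 0.0752 with the replicate block, 0.0219 with all libraries, and 0.0916, 0.116 and 0.494 without replicate 1 or 2 at 500 cells or replicate 1 at 0.5 ng; none of these was called. Over all left-out libraries Tyms ran from -0.558 to 0.00098 and Ccne1 from -0.342 to 0.494.

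Depth limits the low genes most: Gins2 had at most 23 counts in any T cell library.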
